A study of Saccharomyces cerevisiae with 11 samples.

Results

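The comparison described here set 6 arrays of late retentostat culture (days 9, 16 and 20) against 5 arrays of the early phase (3 chemostat arrays and 2 retentostat arrays of day 2) in budding yeast lacking RIM15. It took all 11 arrays of the series and the 6504 of 9335 probe sets that the annotation gives to exactly 1 gene, which stand for 5656 of the 5923 genes in the annotation. RIM15 encodes a protein kinase that is activated when nutrient signalling through protein kinase A, TOR and Sch9 declines, and it is known for setting up stress resistance, reserve carbohydrates and cell-cycle arrest in cells that enter quiescence. In a chemostat, cells wash out and must divide to stay, whereas a retentostat keeps all cells behind a filter while feed continues, so that the energy source per cell falls until it is spent almost wholly on maintenance. The rule pools the late days in order to compare them as 1 state, with more arrays on each side than a single day has.

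All arrays carried the rim15 deletion in the prototrophic laboratory background CEN.PK113-7D, and all cultures were anaerobic and glucose-limited at 30 °C and pH 5.0, with 50 g of glucose per litre of feed and a dilution rate of 0.025 per h. The late group holds 2 retentostat cultures, numbered 1 and 2, with samples from 3 days each. The early group holds 3 chemostat cultures and the same 2 retentostat cultures on day 2. The late side therefore has 6 arrays but 2 independent cultures, and 1 deletion strain was used. Arrays of wild-type yeast were not analysed here, and nothing below separates the effect of RIM15 from that of time. The RIM15 probe set lay between 0.4 and 13.9 on the late arrays and between 1.6 and 10.7 on the early arrays, at or under the floor of 12 on 10 of 11 arrays, though the sources used here do not say where in the gene it lies relative to the deletion. In such whole-culture RNA, fewer cells of a kind and less RNA per cell cannot be told apart.

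Values are linear array signals in arbitrary units, scaled by the authors to 1 common trimmed mean. Differences are late minus early means of log2 signals, with signals under 12 set to 12, and a gene is called where its adjusted p in limma (Benjamini-Hochberg over all genes tested) is under 0.05. Errors after ± are moderated standard errors over 6 late and 5 early arrays. Signals of different genes come from different probes and are not set against each other. The number of arrays limits the precision.

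Of the 6 late arrays 5 stood apart in one of the ways that follow. The 3 late arrays of culture 2 had ACT1 control ratios (3′ over 5′ signal) between 27 and 217, the highest on day 16, whereas the remaining 8 arrays had 0.966 to 2.03. Among 140 further probe sets numbered under 3000, which belong to 67 genes and averaged at least 50 in the early phase, the median difference from the early mean was -2.36 in late culture 2 and -0.51 in late culture 1. The brightest probe sets of those same genes had a median of 0.21 in late culture 2 and 0.09 in late culture 1. Since the brightest probe set is by choice the one with the most signal over all arrays, that choice enters this contrast. The late arrays of culture 1 on days 9 and 16 shifted with the probe-set number, which on this array largely follows the chromosomes. Median differences from the early mean by number were taken over nuclear genes with a mean signal of at least 50. Genes with probe sets numbered 4000 to 6500 had medians of 0.65 on day 9 and 0.52 on day 16 of culture 1. For higher numbers the medians were -0.17 and 0.09. On the day 20 array of culture 1 the medians were 0.27 for numbers 4000 to 6500 and 0.30 for higher numbers. The part of these features in the results was not tested, and counts without each set of arrays are given beside the main one.

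Late cultures held a broadly changed transcriptome. Of 5577 genes with a signal above the floor on at least 1 array, 1771 were called (31.8%), 1395 of them higher in the late arrays (25%) and 376 lower (6.74%). Among the called genes, 456 were higher by more than 1 on the log2 scale and 185 lower by more than 1. For 937 genes the 6 late and the 5 early signals did not overlap (16.8%), with 742 higher (13.3%) and 195 lower (3.5%). The count was 1195 without the late arrays of culture 2, 2627 without those of culture 1 and 1989 after centring each array along the probe-set number, an adjustment chosen after seeing the data. With the 3 late arrays of each culture averaged, which leaves 2 late against 5 early values, 576 genes were called, 429 higher and 147 lower. With only the retentostat arrays and the culture as a fixed term, so that each culture is compared with its own day 2, the count was 202. An interaction term for culture in those 8 arrays (limma) called 0 genes at an adjusted p under 0.05, and 242 had an unadjusted p under 0.05. With 1 day 2 array per culture and 4 residual degrees of freedom, this does not show that the cultures changed alike.

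The split between rises and falls depended on the scaling. As deposited, the median gene was 0.28 higher in the late arrays and 78.8% of calls were rises. With quantile normalization the median was 0.07 and 59.4% of 1197 calls were rises. With each array scaled to 1 median signal the all-gene median was 0.00 and 46.9% of 1170 calls were rises. Small rises are therefore given beside the all-gene median. In the main comparison and in 8 alternatives (centring, quantile and median scaling, either culture's late arrays left out, culture as a random block, averaged cultures, and culture 1 without days 9 and 16), 498 genes were called in 1 direction, 361 higher and 137 lower. Unless stated otherwise, each gene given with values below is among these 498.

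**Figure D1:**
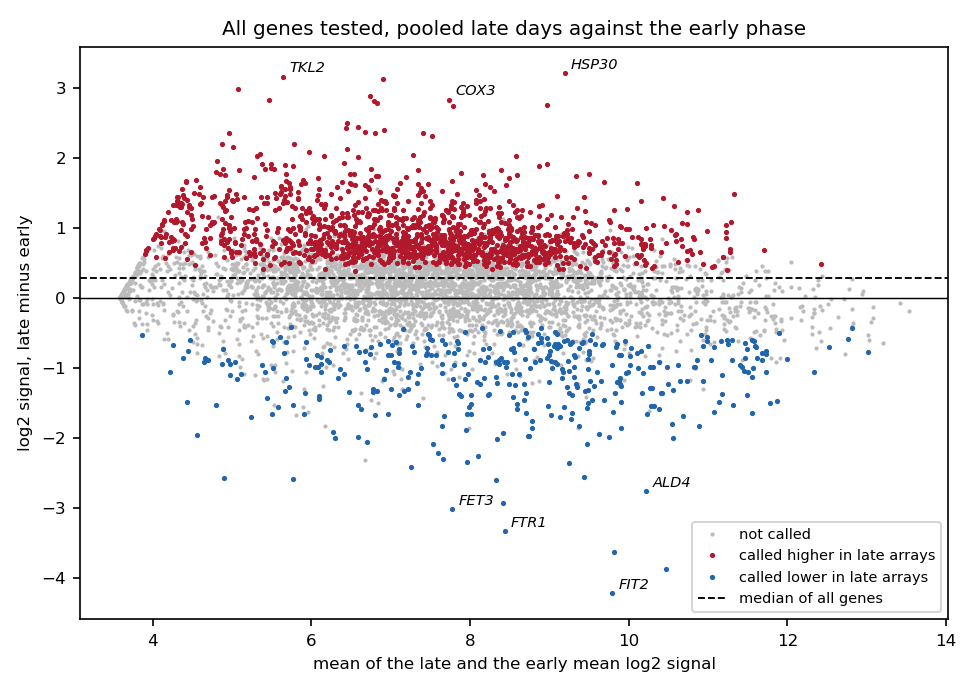
Difference in log2 signal, late minus early, of the 5577 genes tested (y axis), against the average of the late and early mean log2 signals (x axis), with called genes in colour and the all-gene median of 0.28 dashed. The falls reach -4.21 (FIT2) and the rises 3.21 (HSP30), and the 1395 rises outnumber the 376 falls.

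The naming rule admits to its largest rises and falls only genes whose late and early signals do not overlap, so absence of overlap in them is no result. The 12 genes with the largest rises by this rule were HSP30, TKL2, TPO2, MF(ALPHA)1, the mitochondrial-genome genes COX3 and ATP6, and 6 small non-coding RNAs. HSP30, a stress-induced plasma membrane protein, gave a lowest, median and highest signal of 1550, 1680 and 2210 in the late arrays, against 101, 159 and 99.0 in the chemostats and 390 and 420 on day 2. The late signals lay in a narrow band above all early ones, and the day 2 signals stood between the chemostat and the late level. The difference was 3.21 ± 0.37 (limma, adjusted p = 0.000194). TPO2, a plasma membrane exporter of polyamines, ran from 380 through 633 to 750 in the late arrays, against 62.9, 78.3 and 59.1 in the chemostats and 112 and 137 on day 2. It rose by 2.74 ± 0.27 (limma, adjusted p = 5.88e-05), with no overlap. TKL2, a minor transketolase of the pentose phosphate pathway, reached 51.3, 180 and 350 (lowest, median, highest) in the late arrays, against 13.5, 12.3, 12.3, 18.5 and 34.2 in the early ones, a difference of 3.16 ± 0.50. Its 2 other probe sets rose by 2.48 and 2.45. GPX1, a glutathione peroxidase, gave 630 to 909 with a median of 772 in the late arrays, against 105 to 319 with a median of 215 in the early ones, and rose by 2.02 ± 0.25. ATG45 ran from 669 to 1030 in the late arrays and from 218 to 306 in the early ones, with one of the smallest p-values of the rises (1.88 ± 0.16, limma, adjusted p = 3.43e-05).

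The deepest falls were iron transport genes. FIT2, a cell wall mannoprotein that retains siderophore iron, gave 133, 200 and 336 (lowest, median, highest) in the late arrays, against 4380, 2700 and 3880 in the chemostats and 4470 and 3960 on day 2. Every late signal was below every early one by a wide margin, while both day 2 signals lay above 2 of the 3 chemostat signals and 1 of them above all 3. The difference was -4.21 ± 0.26 (limma, adjusted p = 2.35e-06). FTR1, the iron permease of the high-affinity uptake complex, had 69.9, 98.6 and 301 in the late arrays, against 1200, 1230, 1100, 1260 and 777 in the early ones (-3.33 ± 0.34). Its oxidase partner FET3 had 42.2, 81.9 and 133 in the late arrays, against 626, 493, 812, 620 and 606 in the early ones (-3.01 ± 0.27). ENB1, a transporter of the siderophore enterobactin, had 112 to 162 in the late arrays against 477 to 953 in the early ones (-2.60 ± 0.20). FIT3 fell by 3.87 on the log2 scale, with a range of 80.6 to 1190 in the late arrays against 3480 to 7700 in the early ones, at -5.00 in culture 2 and -2.74 in culture 1. Of 31 tested genes of the iron list, 10 were called lower (32.3%) and 2 higher (6.45%), with a median of -0.25. Of all genes tested, 6.74% were called lower and 25% higher. The other 5 that fell were SIT1, FRE5, FRE6, TIS11 and HMX1, among them a siderophore transporter, a reductase homologue and an mRNA-binding protein that acts in iron limitation. Signals of SIT1 overlapped between the phases. The 2 called higher were FRE4 and CCC1, both with overlap. FIT1, FRE1, FRE2, FRE3, ARN1, AFT1 and AFT2 were among the 19 that were not called.

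Other large falls were metabolic and surface genes. PLB2, a phospholipase B, ran from 89.8 through 118 to 214 in the late arrays, against 1260, 1360 and 1320 in the chemostats and 591 and 545 on day 2 (-2.92 ± 0.30). ALD4, the mitochondrial acetaldehyde dehydrogenase, ran from 301 through 465 to 590, against 3550, 5410 and 4620 in the chemostats and 2310 and 1410 on day 2 (-2.76 ± 0.32). RGI2, whose product is linked to energy metabolism under respiratory growth, had 222 to 362 in the late arrays, against 2140 to 2710 in the chemostats and 880 and 1040 on day 2 (-2.56 ± 0.30). All 3 lay lower on day 2 than on any chemostat array, and the late arrays were lower again. SAM4, an S-adenosylmethionine-homocysteine methyltransferase, lay under the floor on 5 of 6 late arrays and at 13.1 on the sixth, against 46.7 to 94.2 in the early arrays, so that the difference of -2.57 ± 0.18 is set by the floor and understates the fall in signal. IZH4 fell by 2.34 and the uncharacterised YMR317W fell by 2.29 on the log2 scale, each with no overlap. SFG1, a regulator of superficial pseudohyphal growth, had 13.1, 17.5 and 46.5 in the late arrays against 81.2 to 255 in the early ones (-2.58 ± 0.39). FLO11, the flocculin of filamentous and biofilm growth, had 488 to 1450 with a median of 637 in the late arrays against 2440 to 3580 in the early ones (-2.00 ± 0.26). In its list of flocculation and filamentous growth genes, 4 of 17 were higher and 3 lower, with a median of 0.04.

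**Figure D2:**
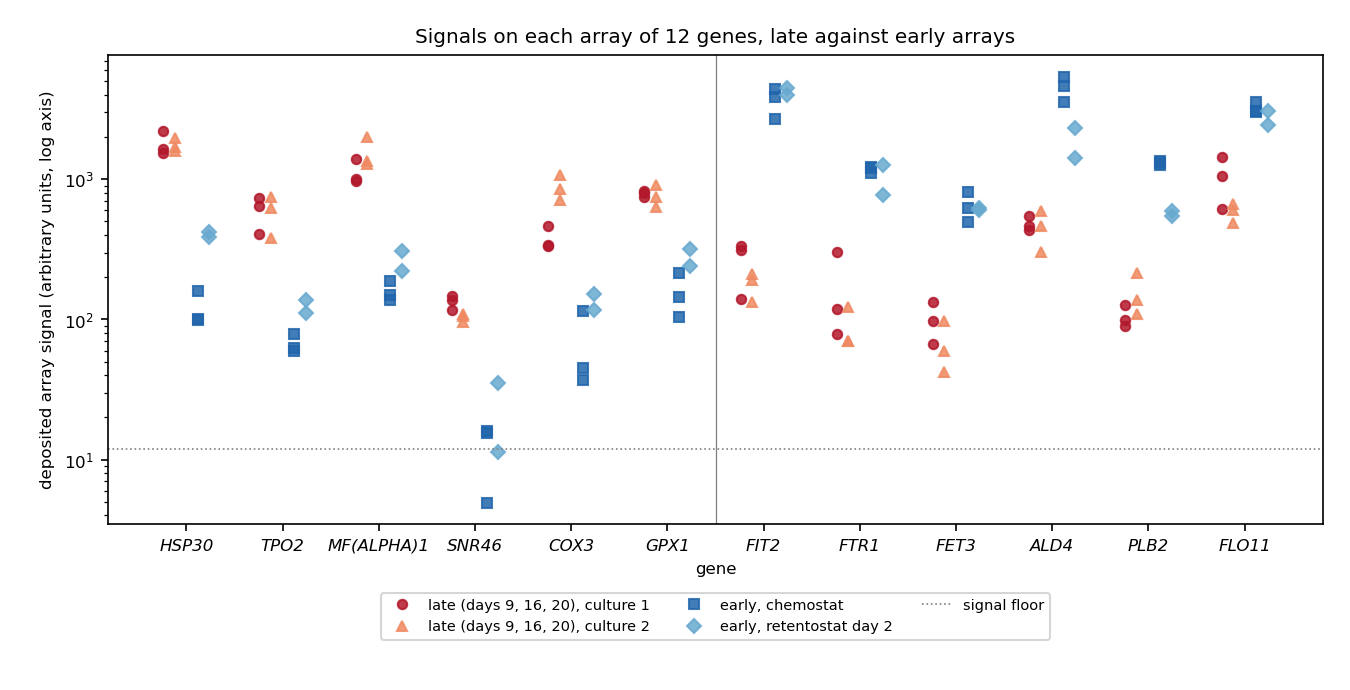
Deposited signals (log y axis) of 6 genes that rose and 6 that fell (x axis), 1 point per array, with the late arrays of culture 1 and culture 2 to the left of the chemostat and day 2 arrays; the dotted line is the floor of 12. Late and early points do not overlap for any of the 12 genes, which the naming rule required of most of them. The day 2 points of HSP30, ALD4 and PLB2 lie between the chemostat and the late points.

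Day 2 signals of called genes lay beyond all chemostat signals, on the late side, more often than those of all genes. Day 2 belongs to the early group. Of the 1395 genes called higher, 610 had both day 2 signals above all 3 chemostat signals (43.7%), compared with 24.5% of all genes tested. Of the 376 called lower, 169 had both below (44.9%), compared with 10.6% of all genes. The median of the genes called higher, relative to the chemostat mean, was 0.22 and 0.40 on day 2 in cultures 1 and 2, and it was 0.86 and 1.04 on day 9, 0.91 and 1.29 on day 16, and 0.81 and 1.05 on day 20. The median of the genes called lower was -0.27 and -0.36 on day 2, and lay between -0.97 and -1.43 on the later days. Since these genes were chosen by the same late and early arrays, these shares and medians describe the calls and are not tested. The day 2 and late arrays come from the same 2 cultures and the chemostat arrays from 3 others. A lasting difference between cultures and a change by day 2 cannot be told apart here. Taking the chemostat alone as the early phase called 1718 genes, 1491 of them in common with the 1771.

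Within the late days no gene passed the test. A moderated F test over days 9, 16 and 20 in limma called 0 of 5577 genes (0%; smallest adjusted p = 0.296), while 258 had an unadjusted p under 0.05 (4.63%). A p that misses the threshold does not show that the days were alike. Among called genes, day 20 exceeded day 9 most for TKL2, by 2.34, and for 3 transfer RNA genes, of which YNCD0014C differed by 2.19. The other 2, YNCD0009W (2.52) and YNCE0008C (2.35), were under the floor on day 9 of culture 1, so their differences depend on the floor, and they lost their late against early call without the late arrays of culture 2. Day 9 exceeded day 20 most for CYC7 (-1.53, the hypoxic cytochrome c isoform), FMP16 (-1.39), FTR1 (-1.38) and ERG20 (-1.13, the farnesyl pyrophosphate synthase). CYC7 and FMP16 lost their late against early call under median scaling and without the late arrays of culture 2, and FMP16 also with culture as a random block. On their own against the early phase, day 9 called 365 genes, day 16 called 764 and day 20 called 966.

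Among 55 gene lists drawn from textbook knowledge, 18 had a median below 0 and 37 a median above 0. Both other scalings lower the all-gene median, so a list below 0 cannot test its sign there. Of the 37 above 0, 11 turned below 0 under quantile normalization and 17 under median scaling, so a positive median under 0.28 is no rise beyond that of the typical gene. The counts of each list are read against the 25% of all tested genes called higher and the 6.74% called lower. Counts without overlap are read against 13.3% higher and 3.5% lower. Under quantile normalization 12.8% of all genes were called higher and 8.73% lower. Under median scaling 9.85% were called higher and 11.1% lower, and most lists had fewer rises and more falls than as deposited. The seripauperin and DAN/TIR cell wall mannoproteins, induced without oxygen, had the lowest median of all lists (-1.38). Of 16 tested genes 15 were called lower, and 13 had no overlap between phases. DAN1 ran from 947 through 1760 to 2760 in the late arrays, against 4140 to 6770 in the early ones (-1.64 ± 0.27). PAU7 ran from 84.2 to 328 in the late arrays against 493 to 1190 in the early ones (-1.92 ± 0.32). TIR1, named after its value was seen, was the member that was not called (-0.60, adjusted p = 0.0643 in limma). Seripauperin genes are near-identical, so their probe sets may share signal.

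Genes of early and of late steps of sterol synthesis fell. In the ergosterol and sterol uptake list, 16 of 33 genes were lower and 3 higher, with a median of -0.67. The falls ran from early steps of the mevalonate pathway (ERG10, ERG13, HMG1, MVD1, IDI1) to steps late in the sterol ring and side chain (ERG2, ERG3, ERG5, ERG6). ERG20 had 99.5, 137 and 317 in the late arrays against 373 to 579 in the early ones (-1.66 ± 0.27), and ERG2 had 1150 to 3500 against 4590 to 7930 (-1.47 ± 0.29). The 3 that rose were ARE2, which esterifies sterols, and the sterol regulators ECM22 and SUT1. SUT1 gave 1320 to 1830 in the late arrays against 747 to 1290 in the early ones (0.72 ± 0.17), but it and ECM22 lost their calls under median scaling, and ECM22 also under quantile normalization, with replicate numbers as a block and without the late arrays of culture 2.

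Falls outnumbered rises in the lists of amino acid, purine and sulfur metabolism, aminoacyl-tRNA synthetases, cytosolic ribosomal proteins and translation factors. As deposited, rises outnumbered falls among ribosome biogenesis, mitochondrial ribosomal protein and transfer RNA genes, given further below. In amino acid biosynthesis 37 of 71 genes were lower and 3 higher (median -0.68). HIS3, an enzyme of histidine synthesis, had 44.1, 94.2 and 169 in the late arrays, against 520, 680 and 489 in the chemostats and 262 and 272 on day 2 (-2.21 ± 0.38, limma, adjusted p = 0.00137). ARO4, an entry enzyme of aromatic amino acid synthesis, had 247 to 551 in the late arrays against 591 to 1680 in the early ones (-1.72 ± 0.29). Purine synthesis had 5 of 20 lower and 1 higher (median -0.37), with ADE17 at -1.62 ± 0.31 and ADE4 at -1.33 ± 0.25. Of 20 cytosolic aminoacyl-tRNA synthetase genes, 6 were lower and none higher (median -0.33). KRS1 was among them, with 6.3 to 13.9 in the late arrays, 2 of them under the floor, against 22.2 to 30.3 in the early ones, so its size depends on the floor. Of 81 measured cytosolic ribosomal protein genes, 18 were lower and none higher (median -0.32), with 8 free of overlap. RPS7B ran from 107 through 579 to 749 in the late arrays against 926 to 1610 in the early ones (-1.50 ± 0.42), at -2.16 in culture 2 and -0.85 in culture 1. The other RPS7B probe set was at -0.55. Of 31 translation factors 6 were lower, including TEF4 (-1.45 ± 0.31). Sulfur and methionine genes had 8 of 31 lower and 3 higher (median -0.23), with HOM2 at -1.33 ± 0.23, MET32 at 1.16 ± 0.22 and MET30 at 0.97 ± 0.16, and without the late arrays of culture 2 that list's median was 0.01.

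Some genes of daughter cell separation and central carbon metabolism changed. Of 14 separation genes 4 were lower and none higher (median -0.48). SUN4, a cell wall glucanase-related protein of septation, had 35.6, 155 and 202 in the late arrays against 488 to 655 in the early ones (-2.25 ± 0.37). EGT2 had 314 to 471 in the late arrays against 689 to 946 in the early ones (-1.14 ± 0.17). Glycolysis and fermentation had 6 of 29 lower and 2 higher (median -0.40), and PFK27, which makes the activator fructose 2,6-bisphosphate, fell by 1.44 ± 0.24. In the tricarboxylic acid, glyoxylate and gluconeogenesis list, 7 of 35 were higher and 5 lower, and under median scaling 3 higher and 10 lower. The glyoxylate enzyme MLS1 ran from 96.3 to 253 in the late arrays against 26.4 to 89.2 in the early ones (2.13 ± 0.37), and the gluconeogenic FBP1 from 70.6 to 143 against 23.5 to 60.2 (1.68 ± 0.26). In the same list MAE1 (-1.83 ± 0.37) and ACS2 (-1.29 ± 0.20), the malic enzyme and the acetyl-CoA synthetase of fermenting cells, fell. Beta-oxidation and peroxisome genes had 9 of 44 higher and 9 lower, and under median scaling 5 higher and 12 lower. The oxidation enzymes POX1 (-1.98 ± 0.30), POT1 (-1.67 ± 0.37) and ECI1 (-1.53 ± 0.22) fell, while the import receptor PEX7 (1.25 ± 0.23) and PEX29 (0.99 ± 0.21) rose. PEX18 was also called higher, with 26 to 39.3 in the late arrays against 8.2 to 19.1 in the early ones, of which 3 were under the floor, so its size depends on the floor.

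The glycogen, mitochondrial ribosomal protein and nuclear respiratory chain lists had 38.1% to 47.4% of genes called higher, against 25% of all genes. Their counts were lower under median scaling, where 9.85% of all genes were called higher. The trehalose (12.5%) and mitochondrial import (15.6%) lists had smaller shares called higher than all genes. Of 19 glycogen genes 9 were higher and 1 lower (median 0.56), and under median scaling 5 and 1. PIG2, a regulatory subunit that directs phosphatase to glycogen synthase, ran from 336 to 583 in the late arrays against 79.6 to 281 in the early ones (1.79 ± 0.29). SGA1, a glucoamylase, ran from 173 to 362 against 56.7 to 134 (1.64 ± 0.27), while PGM1, a phosphoglucomutase, fell by 1.65 ± 0.31. The other SGA1 probe set was at 0.82 and not called. Of 73 mitochondrial ribosomal protein genes 31 were higher and none lower (median 0.55; 15 higher under quantile normalization and 12 under median scaling), with MRPS28 (1.31 ± 0.23), MRPL50 (1.29 ± 0.28) and MRPL33 (1.29 ± 0.26) leading. Of 42 nuclear respiratory chain and ATP synthase genes 16 were higher and none lower (median 0.55). No overlap was seen for 4 of the 42, where 13.3% of all genes were higher without overlap. Under quantile normalization 15 were called higher, and under median scaling 2. Of 16 genes of the mitochondrial genome 7 were higher and none lower. COX3, a core subunit of cytochrome oxidase, had 334, 590 and 1070 in the late arrays, against 36.8, 44.8 and 115 in the chemostats and 117 and 151 on day 2 (2.83 ± 0.42). ATP6 had 163, 233 and 745 in the late arrays against 30.1 to 83.9 in the early ones (2.78 ± 0.41). OLI1 of the same genome was not called. The brightest probe set of COX1 was not called either, but its other probe sets were called higher, at 2.30 ± 0.31 and 2.51 ± 0.43 (limma, adjusted p = 0.000737 and 0.00192), so the probe sets of this gene disagree.

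**Figure D3:**
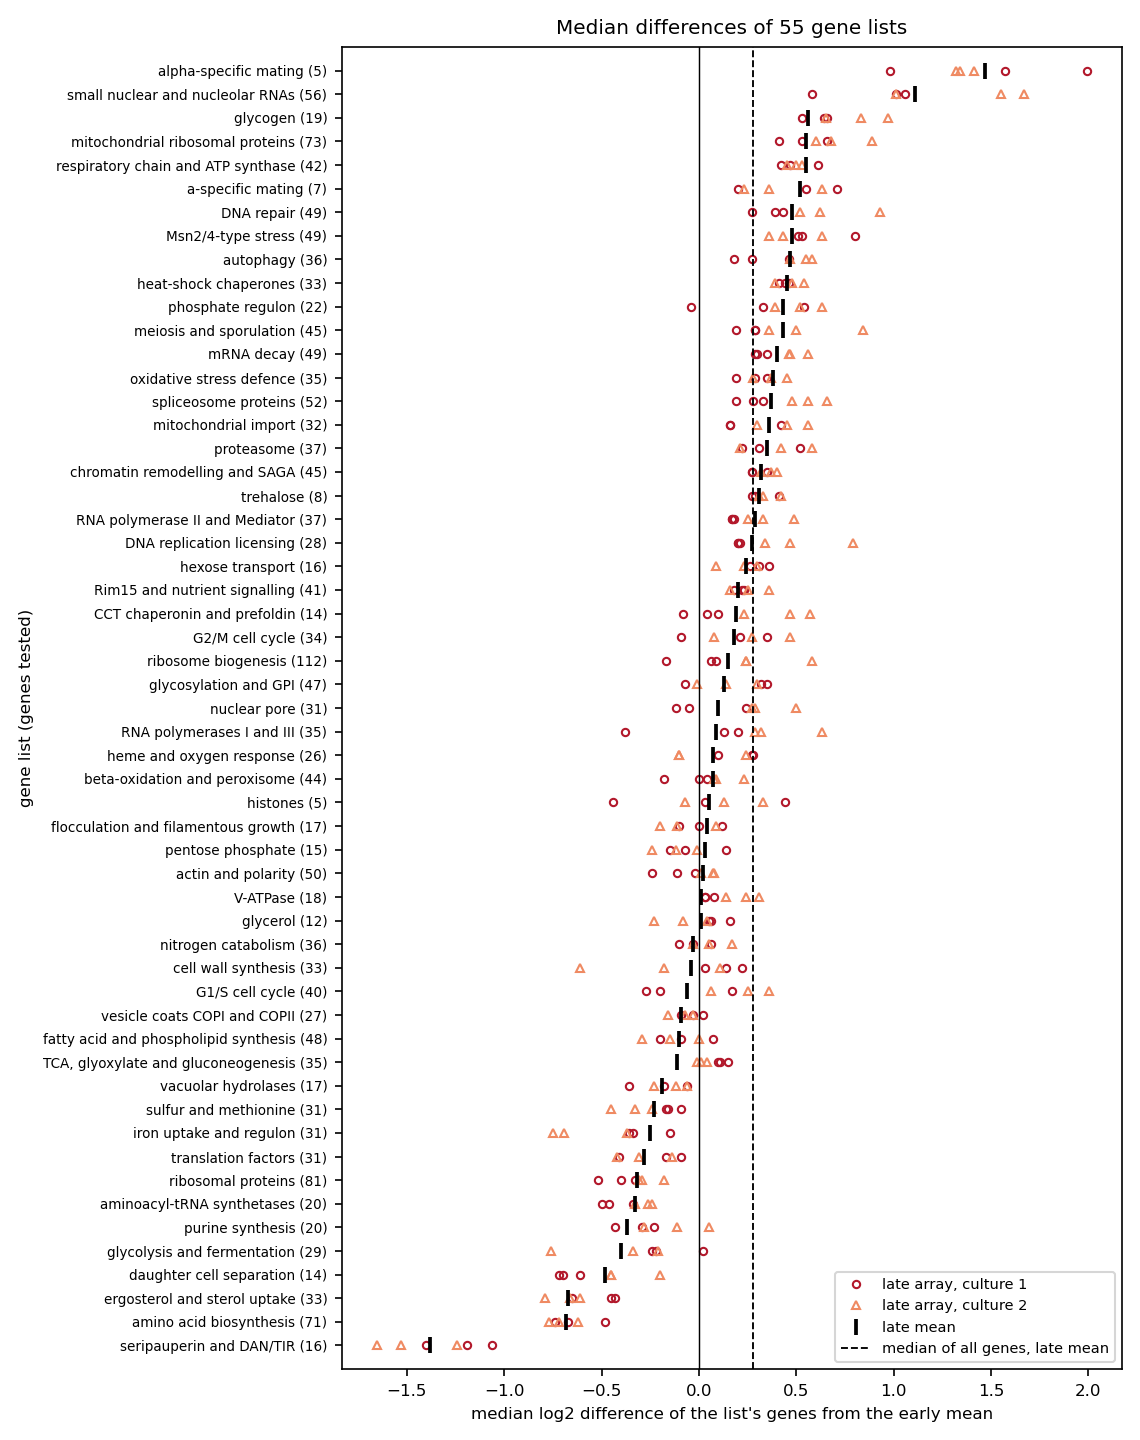
Median log2 difference from the early mean (x axis) of the genes of 55 lists (y axis, with the number tested), for each late array of culture 1 (circles) and culture 2 (triangles) and for the late mean (bars); the dashed line is the all-gene median of 0.28. The seripauperin list lies lowest at -1.38 and the alpha-specific mating and small RNA lists lie highest at 1.47 and 1.11, with both cultures on the same side of 0 for these lists.

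Small non-coding RNAs were often higher and in no case lower in 3 classes. Of 51 small nucleolar RNAs 33 were higher, of 88 transfer RNAs 52, and of 4 spliceosomal RNAs 4, with none lower in these classes and medians of 1.11, 1.05 and 2.40. For protein-coding genes the share higher was 24% and the median 0.26. SNR14, the U4 spliceosomal RNA, ran from 254 through 323 to 539 in the late arrays, against 38.6, 18.0, 38.6, 71.9 and 55.9 in the early ones (3.12 ± 0.32). SNR46, a guide for pseudouridylation of ribosomal RNA, ran from 95.2 through 113 to 147 in the late arrays, against 4.9 to 35.0 in the early ones, 2 of them under the floor (2.82 ± 0.26). SNR13 rose by 2.49 ± 0.32, and the transfer RNA genes SUF1, SUF6 and YNCM0020W by 2.88 ± 0.29, 2.81 ± 0.32 and 2.98 ± 0.39. Transfer RNA genes can be near-identical copies, so their probe sets may share signal, and the 88 are not independent. YNCM0020W lay under the floor on all 5 early arrays, which makes its rise at least 7.9-fold. Most of these RNAs, like those of mitochondria, carry no long poly(A) tail, and the labelling protocol included an mRNA extraction. The part of that step in the rise was not tested. In the list of small nuclear and nucleolar RNAs 36 of 56 were higher, with 27 higher without the late arrays of culture 2 and 31 under median scaling.

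Lists of stress and turnover genes had between 20% and 35.6% of their genes called higher, near or somewhat above the 25% of all genes. Of 49 genes of the Msn2 and Msn4 stress programme 16 were higher and 2 lower (median 0.48; 6 higher under median scaling), where LSP1, an eisosome protein, fell by 1.58 ± 0.23. Of 35 oxidative stress genes 7 were higher and 5 lower, and under median scaling 2 higher and 5 lower. The mitochondrial thioredoxin reductase TRR2 had 454 to 638 in the late arrays against 123 to 375 in the early ones (1.52 ± 0.26), while the thiol peroxidase AHP1 had 151 to 369 against 708 to 926 (-1.85 ± 0.24). Of 33 heat-shock chaperones 10 were higher and 1 lower (6 and 2 under median scaling), with BTN2 at 1.24 ± 0.22 and SSA2 at -0.85 ± 0.16. Of 36 autophagy genes 12 were higher and 1 lower (median 0.47, with 5 higher under either other scaling). Within this list the receptors for the nuclear envelope and the endoplasmic reticulum, ATG39 (1.73 ± 0.26) and ATG40 (1.61 ± 0.31), led. ATG45, described above, is not in this list. Of 37 proteasome genes 10 were higher, and 3 higher and 1 lower under median scaling. Of 49 mRNA decay genes 15 were higher (7 under quantile normalization and 4 under median scaling), led by the nonsense-mediated decay factor UPF3 (1.40 ± 0.19). Of 49 DNA repair genes 17 were higher (7 higher and 1 lower under either other scaling), with RAD24 (1.55 ± 0.23) and RAD54 (1.54 ± 0.24) among them. Of 45 meiosis and sporulation genes 16 were higher and 1 lower, with SPS1 at 1.22 ± 0.19 and its neighbour SPS2 at -0.78 ± 0.16. Of 41 genes of Rim15 and nutrient signalling 9 were higher and none lower, but 2 were higher and 4 lower under median scaling. SCH9, the kinase that holds Rim15 in check, had 241 to 778 in the late arrays against 161 to 240 in the early ones (1.2 ± 0.27).

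Assembly, splicing and transport lists held both rises and falls. Of 112 ribosome biogenesis genes 16 were higher and 5 lower (median 0.15), though 4 were higher and 10 lower under median scaling, where the median was -0.14. NOP16 (1.41 ± 0.27) and ENP2 (1.26 ± 0.24) were among the rises. Of 52 spliceosome protein genes 16 were higher and 2 lower (median 0.37), and under median scaling 4 were higher and 4 lower. In hexose transport 5 of 16 were higher and 2 lower (2 and 2 under either other scaling), with HXT4 at 1.35 ± 0.17 and HXT1 at 1.32 ± 0.21 on low signals. In nitrogen catabolism 6 of 36 were higher and 4 lower (4 and 8 under median scaling), with the permeases UGA4 (1.59 ± 0.27) and DUR3 (1.17 ± 0.25) up and the transaminase BAT2 (-1.54 ± 0.28) down. The other UGA4 probe sets were at -0.08 and 0.60 and were not called. In the phosphate regulon 8 of 22 were higher and none lower, but 6 were higher and 3 lower under quantile normalization and 5 and 5 under median scaling, with PHM6 at 1.09 ± 0.20. In the pentose phosphate list 2 of 15 were higher, TKL2 and NQM1 (1.15 ± 0.23), and 2 lower, among them the major transketolase TKL1 (-1.00 ± 0.24).

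Mating-type genes gave the list with the highest median. CEN.PK113-7D is a haploid of mating type a, in which genes specific to the alpha type are kept low. Of the 5 alpha-specific genes 4 were higher in the late arrays (median 1.47). MF(ALPHA)1, the alpha-factor pheromone, had 979, 1320 and 2010 (lowest, median, highest) in the late arrays, against 150, 188 and 138 in the chemostats and 221 and 307 on day 2. No late signal came near the early range, and the difference was 2.76 ± 0.24 (limma, adjusted p = 3.43e-05). STE3, the a-factor receptor, rose by 1.47 ± 0.23. MF(ALPHA)2 was called higher, with 35.1 to 55.8 in the late arrays against 8 to 21.6 in the early ones, of which 3 were under the floor, so its size depends on the floor. The agglutinin gene SAG1 (0.85 ± 0.27) lost its call under both other scalings and without the late arrays of culture 2. The a-specific genes stayed well above the floor on all arrays: BAR1, the protease that degrades alpha-factor, had 1520 to 2450 in the late arrays and 978 to 1530 in the early ones. Of the 7 a-specific genes 2 were called higher, AGA2 and BAR1, neither of them under median scaling, and BAR1 not with culture as a random block. The summed signal of the 7 was 15400 to 26400 in the late arrays and 15300 to 21700 in the early ones, and that of the 5 alpha-specific genes was 1430 to 2700 in the late arrays and 418 to 619 in the early ones. The part of cells of another mating type in this rise was not tested.

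**Figure D4:**
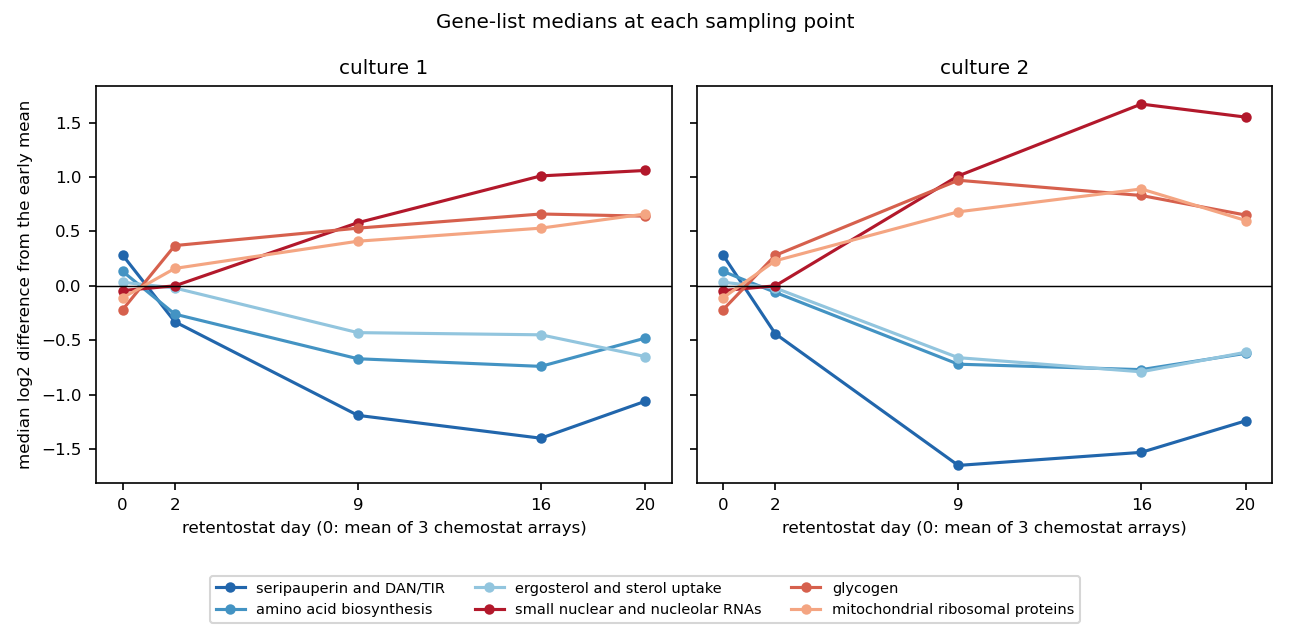
Median log2 difference from the early mean of 6 gene lists (y axis) at each sampling day (x axis, with day 0 the mean of the 3 chemostat arrays), 1 panel per culture. In both cultures the seripauperin, amino acid and ergosterol lists lie below 0 and the small RNA, glycogen and mitochondrial ribosomal lists above 0 on days 9, 16 and 20, and the small RNA median reaches 1.67 on day 16 of culture 2.

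Calls were spread unevenly over the chromosomes, along the probe-set number. On chromosomes IV to IX between 35.1% and 40.5% of genes were called higher, against 8.43% to 23% on each of the other 10 nuclear chromosomes. In culture 2 the median difference by chromosome ran from 0.28 to 0.48, and in culture 1 from -0.05 to 0.51. After centring along the probe-set number the shares called higher ran from 19.6% on chromosome III to 37.5% on chromosome VI. The values by number that follow are of nuclear genes with a mean signal of at least 50, unlike the shares by chromosome. Within chromosome IV, the 449 such genes with probe sets numbered 4000 to 6500 had a median difference of 0.66 on day 9 of culture 1. The 177 such genes with higher numbers had 0.33. Falls were uneven in the opposite sense: over all chromosomes 4.92% of such genes numbered 4000 to 6500 were called lower, against 8.24% of those with higher numbers. After centring these shares were 9.03% and 7.42%. Short genes gave more rises, with 33.9% of 605 protein-coding genes under 500 base pairs called higher, against 21.2% to 24.6% in the longer classes.

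**Figure D5:**
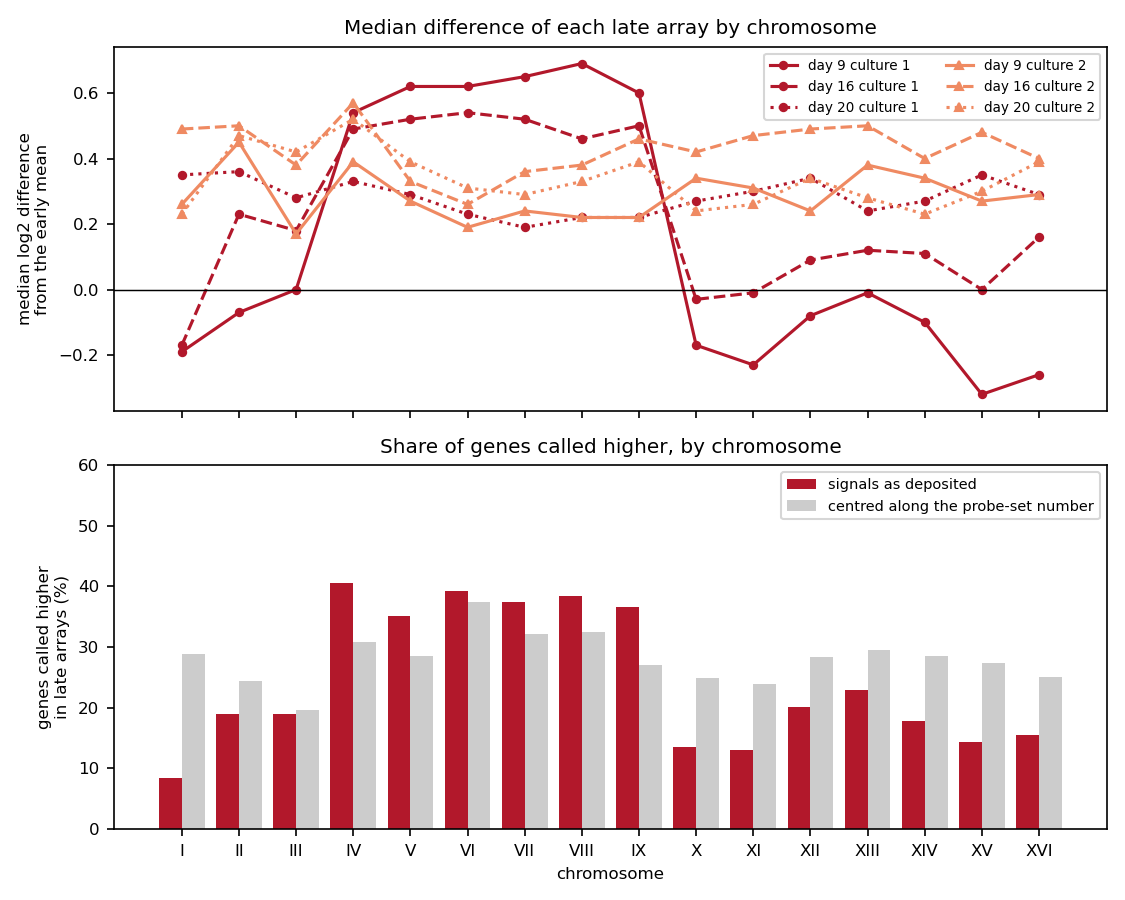
Upper panel: median log2 difference from the early mean (y axis) of the genes on each nuclear chromosome (x axis), 1 line per late array. Lower panel: share of genes called higher in the late arrays as deposited and after centring along the probe-set number; the day 9 and day 16 arrays of culture 1 step up on chromosomes IV to IX, where 35.1% to 40.5% of genes were called higher as deposited.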

How the data were processed

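RNA of 11 cultures or sampling points was measured on 1-colour Affymetrix yeast arrays. The authors deposited intensity values on a linear scale, 1 per probe set, from GCOS 1.2 per the submitters' processing notes. The sources used here do not give its settings for background, summary or scaling. The means of the arrays, with 2% trimmed at each end, differed by 0.0311%. Groups, days and culture codes come from the labels.

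The 9335 probe sets comprise 6504 with a single annotated gene, 328 with several, 2443 with none and 60 controls. Each of 5656 genes was represented by its brightest probe set (mean log2 signal). In a fit of all probe sets, called genes had 258 further probe sets above the floor. Of these, 160 had the same sign as the brightest probe set, 65 were called in that direction and 17 were called in the opposite direction. Signals were floored at 12 and taken to log2, and 79 genes that never exceeded the floor were dropped. Late and early arrays were compared in limma 3.58.1 (R 4.3.3; lmFit, eBayes, 9 residual and 4.23 prior degrees of freedom, two-sided, Benjamini-Hochberg over 5577 genes). All 11 arrays entered as independent, although the retentostat arrays with 1 number are 1 culture per the culture codes in the labels; deviations of the same culture from the day means correlated at 0.227 to 0.690 over 6 pairs of days. The p-values therefore take days of 1 culture as separate samples and do not measure the spread between independent cultures. Gene names come from the platform annotation, updated through RefSeq. Coordinates are omitted because the build is unstated.

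The members, the 55 gene lists, the alternatives and the naming rule were chosen with earlier results of these data known. The rule named the 12 largest rises and falls among called genes without overlap, with a mean of at least 50 in the higher phase and the same sign in both cultures against day 2, up to 3 rises and 3 falls among the called genes of each list, RIM15 and the ACT1 controls, the mating-type genes, the 4 largest differences between days 20 and 9 in each direction among called genes, and the 4 smallest adjusted p-values in each direction among called genes without overlap. The mean of at least 50 also applied to the differences between days and to the smallest p-values. Not all genes so named are given values. The fit was tested on simulated data. A planned search of promoter motifs was not run, because no promoter sequence was used here. Alternatives were another floor (32), a pseudocount (16), quantile and median scaling, filters, all probe sets, array weights, culture and number blocks, single days, single cultures and arrays left out in turn.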

Additional observations from a re-analysis of the deposited data

Results flagged for a closer look

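In 11 of 198 sets of late or early log2 signals of the genes named, 1 array lay far from the others by Dixon's criterion, and chance alone gives about 1 in 20. Late outlying arrays were SAM4 on day 9 of culture 1 (13.1, with the others at 1.5 to 9.8), ECM22 on day 9 of culture 1 (311, others 708 to 994), SUN4 on day 16 of culture 2 (35.6, others 124 to 202) and MRPS28 on day 9 of culture 2 (258, others 388 to 471). Early outlying arrays were FIT2 on chemostat 2 (2700, others 3880 to 4470), MET32 on chemostat 2 (181, others 133 to 146), and ECM22 on day 2 of culture 1 (538, others 346 to 379). On day 2 of culture 2 they were FTR1 (777, others 1100 to 1260), ENB1 (477, others 861 to 953), SNR46 (35.0, others 4.9 to 16.1) and SIR4 (74.7, others 46.9 to 53.6).

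Probe sets outside the comparison carried signal too. In a separate limma fit, 364 of 1869 probe sets with no annotated gene were called higher in the late arrays (19.5%) and 73 lower (3.91%). Of 317 probe sets annotated to several genes, 46 were called higher (14.5%) and 66 lower (20.8%).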

How the results depend on the processing

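The count of 1771 genes (late against early) stayed within 1.5 times under the other floor, the pseudocount, both filters, quantile normalization, all probe sets, the 5-group fit, either culture's late arrays left out, the random culture block (1753) and the replicate number block (1641). It was 1170 under median scaling, 2686 with array weights, 576 with late arrays averaged per culture and 202 with the retentostat alone and its culture block. It was 365, 764 and 966 with day 9, 16 or 20 alone, and 18 with the day 20 array of culture 1, which lacks both array features, as the only late array, a fit that assumes this array to vary like the early ones and was chosen after seeing the data. Leaving out 1 array gave 1223 to 2108, with the lowest counts, 1233, 1269 and 1223, without chemostat 1, 2 or 3. The count among the late days was 0 as reported and in the alternatives run for it, with 132 to 879 genes at an unadjusted p under 0.05. It was 0 under the other floor, pseudocount and scalings, the dim filter, all probe sets, the replicate number block and centring, and 0 to 0 without 1 array. The random block (consensus correlation 0.218) ended the calls of FMP16 and BAR1 among named genes, the number block also that of ECM22, and the retentostat-only block those of 53 of 99 named ones. Averaging per culture also ended those of CYC7, SAG1, SUT1, ECM22 and SIR4, and FMP16 and BAR1 lost theirs without either culture's late arrays. No named gene changed sign in the alternatives run. What causes these changes was not tested, and the fits that leave arrays out also have fewer arrays. Signal near the floor of 12 and 2 late cultures limit what can be seen.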

Other observations

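The remaining lists are read against the 25% of all genes called higher and the 6.74% called lower. Under quantile normalization these shares were 12.8% and 8.73%, and under median scaling 9.85% and 11.1%. DNA replication licensing had 8 of 28 genes higher and 1 lower (median 0.27), and under median scaling 4 higher and 4 lower. Chromatin remodelling and SAGA had 11 of 45 higher and none lower (median 0.32), with 3 higher and 2 lower under median scaling. Fatty acid and phospholipid synthesis had 11 of 48 higher and 12 lower (median -0.10), and 1 and 16 under median scaling. RNA polymerases I and III had 7 of 35 higher and 3 lower, but 1 higher and 4 lower under either other scaling. RNA polymerase II with Mediator had 5 of 37 higher and 1 lower, and 2 and 2 under either other scaling. The G1/S list had 6 of 40 higher and 3 lower, but 2 and 8 under quantile normalization and 1 and 9 under median scaling. The G2/M list had 7 of 34 higher and none lower, and 2 and 2 under either other scaling. Actin and polarity (4 higher and 4 lower of 50), cell wall synthesis (2 and 2 of 33), vesicle coats (2 and 3 of 27) and vacuolar hydrolases (2 and 4 of 17) held few calls in either direction. Of 8 trehalose genes 1 was higher, and of 12 glycerol genes 3 were higher and 2 lower. Mitochondrial import (5 of 32), the nuclear pore (5 of 31) and the V-ATPase (2 of 18) had a smaller share called higher (11.1% to 16.1%) than all genes and none lower, and no rise under median scaling. Heme and oxygen response had 5 of 26 higher and 2 lower (0 and 3 under median scaling), glycosylation 4 of 47 higher and 2 lower (1 and 3 under median scaling), the chaperonin CCT with prefoldin 1 of 14 in each direction, and histones 1 of 5 lower.

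Genes of mating-type silencing were looked up after the alpha-specific values had been seen. SIR2, the deacetylase of silent chromatin, had 455 to 825 in the late arrays against 215 to 313 in the early ones (1.26 ± 0.19, limma, adjusted p = 0.000756). SIR4 rose by 0.70 ± 0.20 but lost its call under both other scalings and with late arrays averaged per culture, and SIR1 and SIR3 were not called. HMRA1, the copy of the a1 gene at the silent locus HMR, gave 1100 to 1910 in the late arrays against 705 to 874 in the early ones (0.87 ± 0.17). Its other probe sets were at 1.57 and 0.15, the latter not called. The a1 gene at MAT has the same sequence, and signals of the 2 loci cannot be told apart.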
